A study of Mus musculus with 33 samples.

Results

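The comparison described here set the interscapular brown fat of mice given a high-fat diet for 24 weeks against that of mice given it for 20 weeks, all of strain C57BL/6J. Its members are 6 of the 33 arrays of a feeding series in brown fat, 3 labelled 24 weeks and 3 labelled 20 weeks. Both diets were semi-purified and built on AIN-76. In the high-fat diet fat supplied 39.2 kcal% (20% fat and 1% cholesterol), and the normal diet had no such addition. Mice were housed singly at 24 °C with 12 hours of light and 12 of dark, and every sample carries an age of 7 weeks, whatever its time point. The normal diet arrays of weeks 20 and 24, 3 of each, were the reference for what changed over the same 4 weeks without added fat. Nothing in the labels says that the 3 replicates of a group were separate animals or pools, so every p-value measures the spread between these arrays only.

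Brown fat burns fatty acids in mitochondria that Ucp1 uncouples, and long feeding with fat enlarges its lipid droplets. In obese fat depots, macrophages gather around dying adipocytes and take up their lipid, and the receptor Trem2 drives a program in them that includes Gpnmb, Lgals3, Cd9 and lysosomal genes. Chemokines such as Ccl7 and Ccl3 draw monocytes from the blood, and macrophages can also divide within fat. Between weeks 20 and 24 any of these processes could change further, and the normal diet shows which changes come with time alone or with the week 24 arrays as a set.

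Probes detected (p below 0.01) on 3 or more of the 33 arrays were kept, 17243 of 45281, and gave 9630 genes, each read on its brightest probe. A level is the log2 of the normalized intensity, a difference is week 24 minus week 20 in log2 units, followed by ± its standard error, and n was 3 arrays in each group. A gene passed when the adjusted p of limma's moderated test over the 9630 genes was below 0.05. All 9 brown adipocyte markers were measured, and their summed intensity lay between 218569 and 240698 at week 20 and between 233405 and 239019 at week 24. Such a sum weighs the brightest markers most. None of the 6 T lymphocyte markers passed the detection filter, and 1 liver marker of 4 did. The summed skeletal muscle markers ran from 8418 to 11905 at week 20 and from 4669 to 34476 at week 24, where replicate 2 alone was high.

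From week 20 to week 24 on high-fat diet, 2363 genes rose and 1792 fell of the 9630 tested, or 24.5% and 18.6%. In 23.7% of genes the rise passed with no overlap of the arrays, and in 17.9% the fall did. Over 2-fold, 271 genes rose and 346 fell. On normal diet 2001 genes rose and 1639 fell over the same weeks (20.8% and 17% of those tested), so a change at week 24 was not in itself a property of the fat-fed mice. The 2 diets share no array here: of the high-fat rises 54.6% also rose on normal diet, which is 64.5% of the normal diet rises, and of the high-fat falls 64.5% also fell, which is 70.5% of the normal diet falls. Across genes, which are not independent replicates, the differences of the 2 diets had a Pearson r of 0.752 and a Spearman rho of 0.705. On the first principal component over all 33 arrays, high-fat week 24 stood at 46.2 ± 0.87 (SD) and normal week 24 at 34.4 ± 1.56, while the 9 other groups had means from -15.1 to 2.68. The labels name no scan, chip or day, so week 24 and any array run of its own cannot be told apart within 1 diet.

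The change itself differed between diets for 386 genes. It was higher on high-fat diet for 289 (3.00% of genes tested) and lower for 97 (1.01%). Of the 271 rises over 2-fold, 137 (50.6%) also rose significantly more than on normal diet. Among the 346 falls over 2-fold, 339 also fell on normal diet and 4 fell significantly more on high-fat diet. With each array shifted to a common median in place of quantile normalization, the median difference of all genes was 0.46 in place of 0.05, and 89.9% of the genes that passed were higher, against 56.9% in the main analysis. Values with the median shift are given as they stand unless said to be relative to all genes, whose own median there was 0.46. Without background correction 53 genes rose and 120 fell over 2-fold, and the count of genes differing between diets was 256 without normal week 24 replicate 1 and 657 without its replicate 3.

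**Figure D1:**
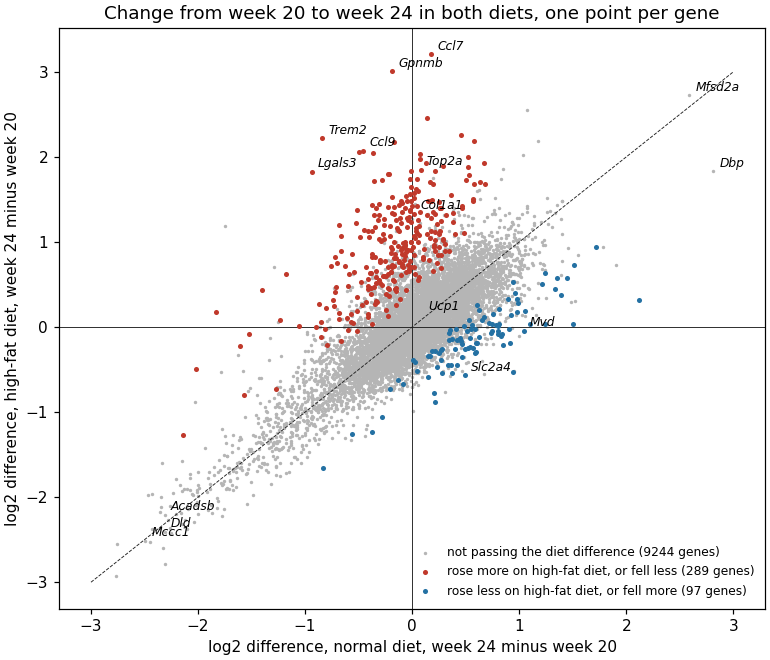
Each point is 1 of 9630 genes, with its log2 difference from week 20 to week 24 on normal diet (x axis) and on high-fat diet (y axis); the dashed line marks equal change. The 289 red genes rose more, or fell less, on high-fat diet and stand mostly above zero on the y axis at little change on the x axis, the 97 blue genes did the opposite, and the large falls at lower left lie along the line.

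The genes of lipid-associated macrophages held several of the largest rises. Gpnmb, a membrane glycoprotein of phagocytes that digest lipid, read 9.14, 10.05 and 9.0 at week 20 and 12.39, 12.32 and 12.50 at week 24. The groups did not overlap, and the difference was 3.01 ± 0.31, adjusted p = 1.46e-08. On normal diet Gpnmb read 10.30, 8.66 and 9.18 and then 8.72, 9.33 and 9.53, a difference that did not pass (-0.19, adjusted p = 0.662). The second Gpnmb probe read 5.38, 6.84 and 6.02 at week 20 and 7.93, 7.79 and 7.81 at week 24, a rise of 1.77 ± 0.25, adjusted p = 2.41e-06. Both probes put every week 24 array above every week 20 array.

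Trem2, the lipid-sensing receptor of these cells, rose on high-fat diet from 6.76, 7.04 and 6.40 to 8.90, 8.94 and 9.03 (2.22 ± 0.21, adjusted p = 5.91e-09). Over the same weeks it fell on normal diet, from 7.17, 6.24 and 6.85 to 5.54, 6.01 and 6.19 (-0.84 ± 0.21, adjusted p = 0.00289). The 2 changes thus ran in opposite directions and differed by 3.06 ± 0.30, adjusted p = 2.50e-07. Lgals3, a sugar-binding galectin released by activated macrophages, followed the same course: it rose from 11.25, 11.93 and 10.90 to 13.04, 13.17 and 13.35 (1.83 ± 0.24, adjusted p = 8.15e-07) and fell on normal diet by 0.94 (adjusted p = 0.00284). Capg, an actin-capping protein of macrophages, rose by 1.72 ± 0.12, adjusted p = 1.89e-11 on its brightest probe, while its second probe was detected on no array of either week. Cd63, a tetraspanin of late endosomes, rose by 0.91 ± 0.12, adjusted p = 1.59e-06 and its second probe by 1.35.

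Of the 21 measured genes of the lipid-associated macrophage list, 12 rose and 4 fell, with a median difference of 0.54 beside 0.05 over all genes. On normal diet 3 rose and 6 fell, with a median of -0.19, and for 7 genes the rise was significantly larger on high-fat diet. The 4 that fell were the cathepsins Ctsb (-0.57) and Ctsz (-0.48), and the fatty acid carriers Fabp5 (-1.20) and Cd36, the last detected on 1 week 20 array and none at week 24 and so at least 1.14-fold lower. Under the median shift neither cathepsin passed: Ctsb stood at -0.15 (adjusted p = 0.294) and Ctsz at 0.05 (adjusted p = 0.793). Relative to all genes they stood at -0.62 and -0.41. Fabp5 and Cd36 are also used by adipocytes and endothelial cells, and in whole tissue fewer cells of a type and less RNA per cell cannot be told apart.

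Chemokines rose with these genes. Ccl7, a monocyte attractant, was not detected on any week 20 array, where it read 5.43, 5.92 and 5.56, and read 8.73, 8.86 and 8.94 at week 24. It was at least 6.16-fold higher at week 24, a bound taken against the lowest detected signal of the week 20 arrays (adjusted p = 5.11e-12), and its second probe, undetected at week 20 too, was at least 1.33-fold higher (adjusted p = 1.95e-07). On normal diet Ccl7 stayed between 5.36 and 5.93 at both weeks, below all 3 high-fat arrays of week 24. That is also below the lowest signal detected on those normal diet arrays. Among the groups compared, only high-fat week 24 could carry either Ccl7 probe through the detection filter, so its p-values are descriptive only.

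Ccl9, made by myeloid cells, was detected on all 6 arrays and rose from 8.99, 9.18 and 8.85 to 10.89, 11.07 and 11.27 (2.07 ± 0.15, adjusted p = 3.17e-11). It fell on normal diet by 0.46 (adjusted p = 0.0171). Ccl4 and Cxcl1, attractants of monocytes and of neutrophils, went from no detected array to 3 of 3 and were at least 2.81-fold and 2.33-fold higher (adjusted p = 2.06e-06 and 3.86e-08). Ccl6 rose by 1.74 ± 0.23, adjusted p = 7.61e-07, and Ccl3 was at least 1.10-fold higher (adjusted p = 1.45e-07). In each of these 6 chemokines the rise was significantly larger than on normal diet in the test of the difference. Where all 4 groups were detected, that difference was 2.53 for Ccl9 and 1.75 for Ccl6.

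Over the whole chemokine list, 13 of 23 measured genes rose (56.5%, beside 24.5% of all genes) and 1 fell (4.35%, beside 18.6%), with a median of 0.57. The corresponding counts on normal diet were 1 and 4, with a median of -0.17, and 9 genes differed between diets. Of the 23, 10 were detected on no week 20 array and all on some array of week 24, and a gene that entered only through its week 24 arrays had to be higher there. Among the 13 detected at both weeks 6 rose and 1 fell, with a median of 0.23. The gene that fell was Ackr4 (-0.72 ± 0.14, adjusted p = 0.000196), a receptor that removes chemokines without signalling, and it fell on normal diet too (-1.06). Its value with the median shift was -0.20, which did not pass.

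General macrophage genes were mostly higher, with exceptions. Of 16 measured, 11 rose (68.8%, beside 24.5% of all genes) and 2 fell (12.5%, beside 18.6%), with a median of 0.67. On normal diet 1 rose and 7 fell (median -0.40), and 8 differed between diets, all higher on high-fat diet. Laptm5, a lysosomal membrane protein of blood cells, rose by 1.45 ± 0.11, adjusted p = 1.45e-10. Tyrobp, the signalling adaptor of Trem2, went from 7.02, 7.48 and 6.90 to 8.82, 8.78 and 8.73, a rise of 1.64 ± 0.24, adjusted p = 3.77e-06. Fcgr3, an antibody receptor, rose by 1.09 ± 0.15, adjusted p = 2.75e-06, and Folr2, a folate receptor of tissue-resident macrophages, rose on both of its probes (0.93 and 1.11).

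The 2 exceptions in the list were Csf1r and Clec10a. Csf1r, the growth factor receptor that macrophages depend on, fell on its brightest probe (-0.92 ± 0.12, adjusted p = 6.84e-07) but rose on its second (0.85 ± 0.25, adjusted p = 0.00812), so its direction is not settled here. Clec10a, a lectin of resident macrophages, was detected on all week 20 arrays and on none at week 24 and was at least 2.29-fold lower (adjusted p = 3.09e-05), and it fell below detection on normal diet as well. Without high-fat week 24 replicate 2, 8 macrophage genes rose and 2 fell. Of the 6 measured macrophage markers, all were detected on all 6 arrays, and their summed intensity ran from 3902 to 5916 at week 20 and from 6878 to 7531 at week 24. On normal diet the same sum went from between 3795 and 3988 to between 2324 and 2909.

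Complement genes, which encode serum proteins that tag debris, gave 6 rises and no fall among 8 measured, at an unadjusted p under 0.05 too. Of the list 75% thus rose, beside 24.5% of all genes. The largest rise was that of Cfp, which stabilises the alternative pathway and rose by 1.56 ± 0.11, adjusted p = 3.22e-11. C1qa rose by 0.96 ± 0.13, adjusted p = 1.14e-06, and both it and Cfp rose more than on normal diet. For C1qc (0.78), C2 (0.78) and C4b (0.70) the rise passed on high-fat diet but its difference from normal diet did not.

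Antigen presentation and interferon genes gave fewer calls. The MHC class II genes had 1 rise, H2-DMb2 (0.57 ± 0.18, adjusted p = 0.0112), which helps to load peptides, and 1 fall, H2-Aa (-1.60 ± 0.19, adjusted p = 2.77e-07), the alpha chain that presents peptides to T cells. H2-Aa also fell on normal diet, by 2.34, and no class II gene of the 8 measured differed between diets after limma's adjustment, although 6 did at an unadjusted p under 0.05, all higher on high-fat diet. Of 22 interferon-response genes 6 rose (27.3%, beside 24.5% of all genes) and 2 fell (9.09%, beside 18.6%), with a median of 0.27. On normal diet 1 rose and 5 fell, with a median of -0.30. By limma's adjusted test 1 differed between diets, and 11 did at an unadjusted p under 0.05, all higher on high-fat diet. Isg15, a ubiquitin-like antiviral protein, rose by 0.84 ± 0.17, adjusted p = 0.000206, and Bst2, which tethers viral particles, rose by 1.37 on high-fat and by 1.29 on normal diet. Irgm1 and Oasl2 fell (-0.39 and -0.53), each with a second probe of opposite sign that did not pass, and with the median shift Irgm1 stood at 0.12 and Oasl2 at -0.17.

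Further large rises lay outside these lists or crossed them. Slc37a2, a sugar phosphate carrier of macrophages, read 5.05, 4.96 and 4.95 at week 20 with no array detected and 7.40, 7.29 and 7.64 at week 24. The bound was at least 2.34-fold (adjusted p = 1.70e-14), and it was detected on no normal diet array of either week. Among the groups compared, only high-fat week 24 could carry Slc37a2 through the detection filter, so its p-values are descriptive only. Kcnab2, a potassium channel subunit, rose by 2.26 ± 0.17, adjusted p = 5.13e-11. Clec4d, a pattern receptor of myeloid cells, and Hk3, a hexokinase of white blood cells, were at least 2.47-fold and 2.46-fold higher (adjusted p = 1.28e-10 and 1.05e-08). All 4 passed the test of the difference between diets as higher on high-fat diet. Each was detected on no array of at least 1 of the 4 groups, so that test is descriptive only for them.

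Lcn2, an iron-binding protein secreted by fat and neutrophils in inflammation, was undetected at week 20 and at least 3.55-fold higher at week 24 (adjusted p = 9.37e-10). The 2 neutrophil markers that were measured did not pass. Hmox1, which breaks down heme, was at least 3.16-fold higher (adjusted p = 1.81e-06). It went from no detected array to 3 on normal diet too, and the difference between diets did not pass (adjusted p = 0.211). Itih4, a secreted acute-phase protein of the inter-alpha-trypsin inhibitor family, was at least 3.52-fold higher on its brightest and 1.27-fold on its second probe. The test of the difference between diets did not pass for Itih4. Rises backed by 2 probes also included Cd44, a hyaluronan receptor of leukocytes (1.80 and 0.90), and Rab7b, a GTPase of late endosomes (1.97 and 1.70). Lat2, an adaptor of immune receptors, rose by 1.93, and its second probe, undetected at week 20, was at least 2.08-fold higher. Rgs1, a brake on chemokine receptor signalling, was undetected at week 20 on both probes and at least 1.63-fold and 3.06-fold higher.

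Coro1a, an actin regulator shared by all white blood cells, rose by 1.28 ± 0.17, adjusted p = 1.27e-06 and by 1.01 on its second probe. It led the lymphocyte list, of which 5 of the 7 measured genes rose (71.4%, beside 24.5% of all genes) and 1 fell (14.3%, beside 18.6%). The T cell receptor chain genes were not among those 7, and Coro1a and Rac2 are used by macrophages as well. With the mean of this list as a covariate, 3060 genes passed on high-fat diet in place of 4155. With that covariate 38 of the 153 named high-fat calls and 10 of the 50 named differences between diets no longer passed. Among those lost were C1qc (adjusted p = 0.703), Bst2 (0.644), Isg15 (0.359) and the lymphocyte genes Cd79b (0.397) and Rac2 (0.123), and, of the differences between diets, C1qa (0.297), Cxcl1 (0.0783), Plk1 (0.0828), Me1 (0.247), Sncg (0.122) and Igf1 (0.147). Cd79b and Rac2 are themselves part of that mean, so the covariate weakens their calls by construction. With the covariate 6 macrophage genes rose and 2 fell, 9 lipid-associated macrophage genes rose and 1 fell, and the rises numbered 9 for chemokines, 16 for cell cycle genes and 1 for interferon-response genes. The rise of H2-DMb2 was lost (0.802), and 3 MHC class II genes fell.

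**Figure D2:**
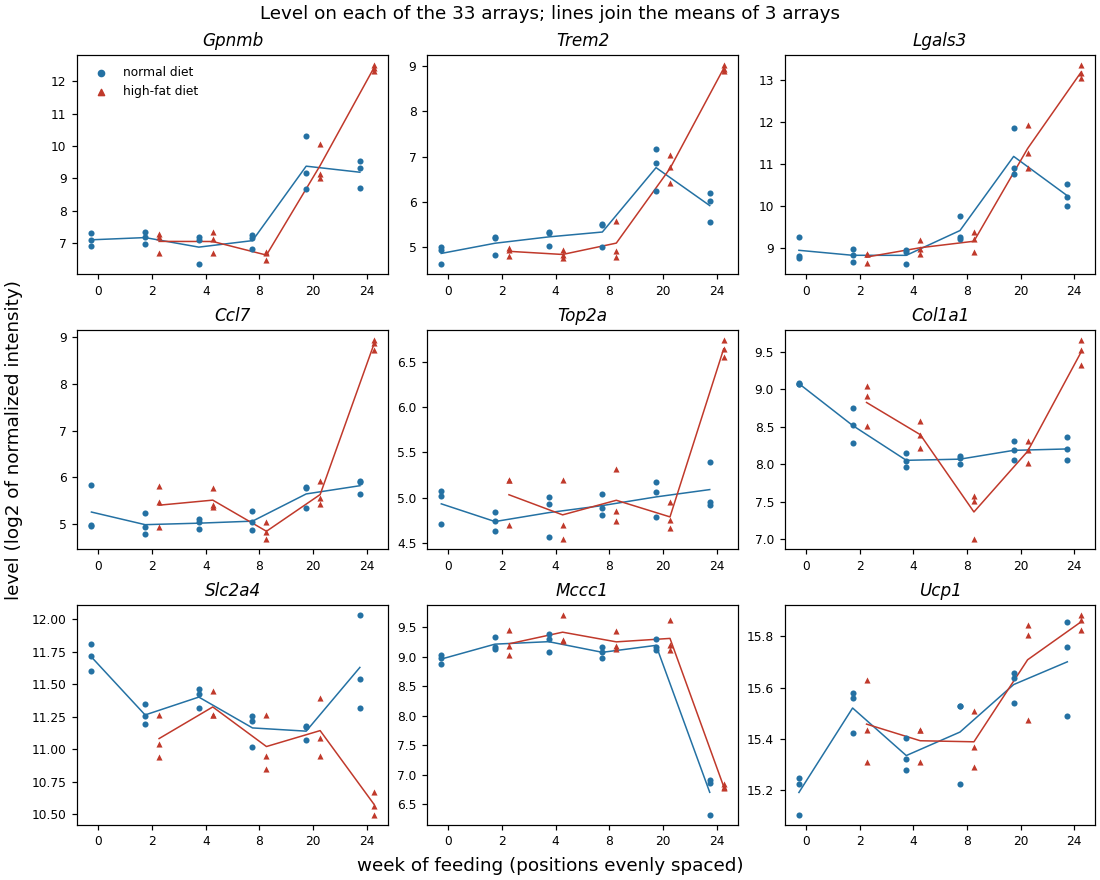
The log2 level of 9 genes is shown on each of the 33 arrays by week of feeding, with blue circles for normal and red triangles for high-fat diet. The red triangles of week 24 stand above all others for Gpnmb, Trem2, Lgals3, Ccl7, Top2a and Col1a1, fall below for Slc2a4, fall together with the blue circles for Mccc1, and overlap week 20 for Ucp1.

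Genes of cell division rose on high-fat diet. Of 34 measured, 20 rose and 1 fell, with a median of 0.55, against 9 and 3 on normal diet with a median of 0.14. The high-fat shares were 58.8% higher and 2.94% lower, beside 24.5% and 18.6% of all genes. For 9 genes the rise was larger on high-fat diet. Detection moved with this count, since 10 of the 34 were detected on no week 20 array and 1 on no week 24 array. Among the 24 detected at both weeks 12 rose and 1 fell, with a median of 0.43. Top2a, the topoisomerase that untangles chromosomes before mitosis, read 4.75, 4.66 and 4.96 at week 20, with no array detected, and 6.74, 6.64 and 6.54 at week 24. It was at least 1.34-fold higher (adjusted p = 4.24e-09) and was detected on no normal diet array of either week.

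Prc1, which bundles microtubules of the dividing spindle, read 6.52, 6.44 and 6.11 and then 8.12, 8.27 and 8.09, a rise of 1.80 ± 0.21, adjusted p = 1.80e-07. The mitotic kinase Plk1 and the chromosome passenger protein Cdca8 were undetected at week 20 and at least 1.85-fold and 2.24-fold higher at week 24 (adjusted p = 2.76e-10 and 1.41e-09). Neither was detected on any normal diet array of these weeks, and both differed in their change between diets (adjusted p = 0.000991 and 0.000583). Among the groups compared, only high-fat week 24 could carry Plk1, Cdca8 and Top2a through the detection filter. Their p-values rest on that group and are descriptive only. Tk1, which makes thymidine phosphate for DNA synthesis, was at least 1.49-fold higher (adjusted p = 8.31e-09). The exception was Ccnd3, a cyclin of the start of the cycle, which fell by 0.21 (adjusted p = 0.0313) but rose by 0.30 with the median shift. Which cells divided cannot be read from whole tissue.

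The promoters of these 4 mitotic genes are shown because genes that move together in the cell cycle often share the letters TTTGAA (the cell cycle homology region, CHR) and CCAAT. Each window holds 250 bases before and 50 after the gene's start as RefSeq gives it on build GRCm38.p6, 5′ to 3′ on the gene's strand, with matches to either motif on either strand in capitals. The windows are chr7:122159185-122159484 on the plus strand for Plk1, chr7:80294201-80294500 on the plus strand for Prc1, chr4:124936868-124937167 on the minus strand for Cdca8 and chr11:99024140-99024439 on the minus strand for Top2a. In Cdca8 the CHR match and a CCAAT match overlap.
Plk1: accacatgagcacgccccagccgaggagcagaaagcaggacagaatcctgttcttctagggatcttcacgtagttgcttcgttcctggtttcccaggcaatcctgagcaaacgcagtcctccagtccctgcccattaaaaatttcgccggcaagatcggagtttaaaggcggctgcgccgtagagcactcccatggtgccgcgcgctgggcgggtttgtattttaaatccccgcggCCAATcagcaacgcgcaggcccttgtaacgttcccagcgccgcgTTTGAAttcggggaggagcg
Prc1: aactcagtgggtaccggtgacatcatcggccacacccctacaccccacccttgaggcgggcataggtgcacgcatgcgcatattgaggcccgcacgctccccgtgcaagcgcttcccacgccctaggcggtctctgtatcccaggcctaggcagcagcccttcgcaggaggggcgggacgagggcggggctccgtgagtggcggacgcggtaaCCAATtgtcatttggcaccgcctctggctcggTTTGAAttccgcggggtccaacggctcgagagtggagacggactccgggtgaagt
Cdca8: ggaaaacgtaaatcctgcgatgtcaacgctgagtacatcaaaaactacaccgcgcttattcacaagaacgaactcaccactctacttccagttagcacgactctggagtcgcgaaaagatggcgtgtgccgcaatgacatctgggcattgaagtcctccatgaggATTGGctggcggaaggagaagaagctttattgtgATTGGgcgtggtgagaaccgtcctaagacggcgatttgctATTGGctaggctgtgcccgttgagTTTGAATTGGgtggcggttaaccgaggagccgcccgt
Top2a: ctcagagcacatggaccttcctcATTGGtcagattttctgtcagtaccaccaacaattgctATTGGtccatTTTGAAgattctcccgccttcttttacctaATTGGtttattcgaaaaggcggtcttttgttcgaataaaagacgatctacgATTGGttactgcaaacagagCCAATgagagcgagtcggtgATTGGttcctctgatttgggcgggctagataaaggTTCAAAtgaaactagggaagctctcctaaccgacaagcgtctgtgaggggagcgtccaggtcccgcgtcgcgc

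Of the 7833 tested genes with such a window, 11.4% held TTTGAA, 38.4% held CCAAT and 4.66% held both, counting both strands. Among the 30 measured cell cycle genes with a window the shares were 43.3%, 63.3% and 40%, and among the 16 that rose they were 62.5%, 81.2% and 56.2%. A match is a stretch of letters and not a shown binding site.

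Matrix genes split. Of 36 measured, 17 rose (47.2%, beside 24.5% of all genes) and 4 fell (11.1%, beside 18.6%), with a median of 0.28. On normal diet 6 rose and 12 fell, with a median of -0.16. For 7 genes the rise was larger on high-fat diet. Col1a1, a chain of the main fibrillar collagen, read 8.02, 8.30 and 8.20 at week 20 and 9.66, 9.33 and 9.52 at week 24 (1.33 ± 0.14, adjusted p = 4.73e-08). Col1a2, the partner chain of the same collagen, fell from 7.42, 7.28 and 6.92 to 6.74, 6.22 and 6.29 (-0.79 ± 0.22, adjusted p = 0.00474), a call lost with the median shift (-0.44, adjusted p = 0.0565). The 2 chains of 1 protein were thus read in opposite directions, each on a single detected probe.

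Col5a1, which starts collagen fibrils, rose by 1.21 ± 0.13, adjusted p = 1.90e-08, and the secreted glycoprotein Fstl1 by 1.09 ± 0.12, adjusted p = 9.62e-08. Both rises exceeded those on normal diet, but the Fstl1 difference was lost when any of 3 arrays was left out (adjusted p up to 0.0908). Mmp14, a membrane protease that cuts collagen, rose by 1.02 ± 0.12, adjusted p = 1.66e-07, and Tgfbi, an adhesion protein of the matrix, by 0.85 ± 0.11, adjusted p = 5.73e-07, and neither differed significantly between diets. The second Tgfbi probe overlapped between the weeks on high-fat diet, at 7.18, 7.52 and 7.43 and then 7.56, 7.48 and 7.49. Col3a1 fell by 1.23 (adjusted p = 2.84e-05) and went below detection on normal diet. Lama4, a laminin chain of vessel walls, was detected on 2 arrays at week 20 and none at week 24, and was at least 1.43-fold lower (adjusted p = 0.000278). The crosslinking enzyme Lox fell by 0.37 (adjusted p = 0.0340), but stood at 0.09 with the median shift, or -0.37 relative to all genes.

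Among 16 fibroblast and preadipocyte genes 10 rose (62.5%, beside 24.5% of all genes) and 2 fell (12.5%, beside 18.6%). Cd34, a sialomucin of progenitors and vessels, was at least 1.45-fold higher (adjusted p = 8.84e-06), and Pdgfra, the growth factor receptor that marks preadipocytes, rose by 0.81 ± 0.15, adjusted p = 7.22e-05. Both also rose on normal diet, and none of the 16 genes differed between diets by limma's adjusted test, while 3 did at an unadjusted p under 0.05. Gsn, which severs actin, fell by 1.15 (adjusted p = 0.00159). Igf1, a growth factor that macrophages and fat cells secrete, rose by 1.00 ± 0.15, adjusted p = 9.01e-06 with support from its second probe (1.04), and it did not pass on normal diet (-0.01, adjusted p = 0.957). Grb14, an inhibitor of the insulin receptor, fell on both probes (-1.52 and -1.61), as it did on normal diet (-1.73).

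**Figure D3:**
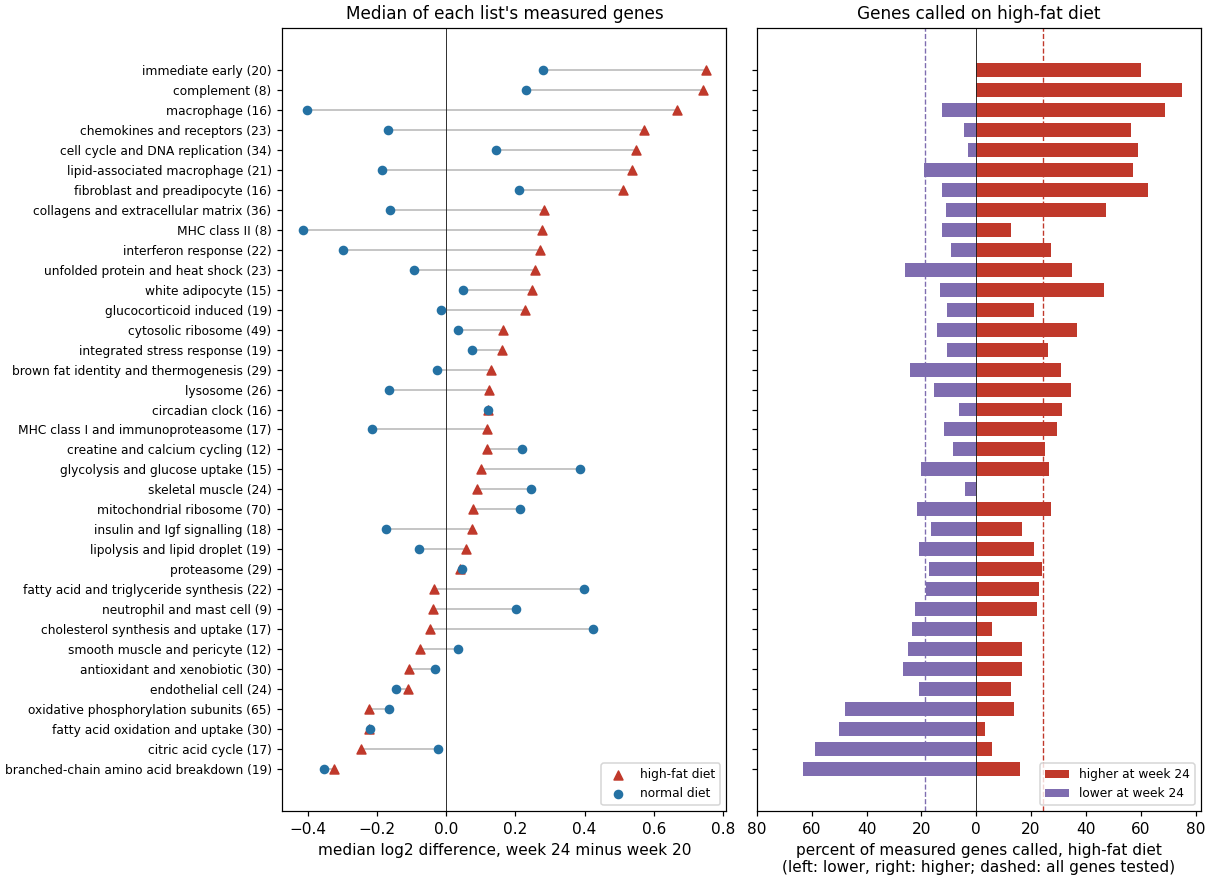
On the left each gene list with at least 8 measured genes (number in brackets) is placed by the median log2 difference of its genes from week 20 to week 24, with red triangles for high-fat and blue circles for normal diet; on the right bars give the percent of its genes that passed on high-fat diet, higher to the right and lower to the left, with dashed lines at 24.5% and 18.6% for all genes tested. Immediate early, complement, macrophage, chemokine and cell cycle genes stand highest on high-fat diet, and branched-chain amino acid, citric acid cycle, fatty acid oxidation and oxidative phosphorylation genes lowest.

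Lipid synthesis and glucose uptake gave differences in the other direction. Of the 22 measured genes of fatty acid and triglyceride synthesis, 5 rose and 4 fell on high-fat diet, with a median of -0.04. Those shares, 22.7% and 18.2%, lay near the 24.5% and 18.6% of all genes. On normal diet 15 rose and 2 fell, with a median of 0.40, and 6 genes differed between diets, all lower on high-fat diet. Me1, which supplies NADPH for fatty acid synthesis, fell from 10.95, 11.22 and 11.28 to 9.53, 9.43 and 9.53 (-1.65 ± 0.16, adjusted p = 6.84e-09), and its fall on normal diet was smaller (-0.84; difference -0.82 ± 0.23, adjusted p = 0.0365, lost when any of 10 of the 12 arrays was left out). Fasn, fatty acid synthase, fell by 0.75 (adjusted p = 0.000683), with no significant difference between diets, and this call was lost with the median shift (-0.29, adjusted p = 0.158) and with the lymphocyte covariate (adjusted p = 0.058).

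Slc25a1, which carries citrate out of mitochondria for synthesis, fell by 0.45 (adjusted p = 0.00579) on high-fat and rose by 0.42 on normal diet. The 2 changes differed by -0.87 ± 0.18, adjusted p = 0.00351. Scaled by array medians, its high-fat value was 0.01, or -0.45 relative to all genes. Mlxipl, the carbohydrate-sensing regulator of this pathway, rose by 0.94 and 0.90 in the 2 diets, but its second probe did not rise (-0.08). Thrsp, a lipogenic protein of liver and fat, rose by 0.49 and 1.03.

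Slc2a4, the insulin-responsive glucose transporter, read 10.94, 11.40 and 11.09 at week 20 and 10.67, 10.50 and 10.56 at week 24 on high-fat diet (-0.57 ± 0.14, adjusted p = 0.00170). On normal diet it read 11.17, 11.07 and 11.17 and then 12.03, 11.54 and 11.32 (0.49 ± 0.14, adjusted p = 0.00628). The week 24 arrays of the 2 diets did not overlap, and the changes differed by -1.06 ± 0.19, adjusted p = 0.00104. With the median shift its high-fat value was -0.03, or -0.49 relative to all genes, and did not pass (adjusted p = 0.885). Slc2a1, the transporter of basal glucose uptake, rose in both diets (1.19 and 0.93). Among 15 glycolysis genes 4 rose and 3 fell on high-fat diet against 10 and 0 on normal diet (the same at an unadjusted p under 0.05), and 3 differed between diets, all lower on high-fat diet. The high-fat shares, 26.7% higher and 20% lower, lay near the 24.5% and 18.6% of all genes. Pfkl, a phosphofructokinase, rose by 0.63, while Pgk1, phosphoglycerate kinase, fell by 0.44 on its brightest probe, was at least 1.11-fold higher on its second, undetected at week 20, and stood at 0.03 with the median shift.

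Cholesterol synthesis showed the same contrast. Of 17 measured genes 1 rose (5.88%, beside 24.5% of all genes) and 4 fell (23.5%, beside 18.6%) on high-fat diet. On normal diet 9 rose and 3 fell, and 4 differed between diets, all lower on high-fat diet. Mvd, an enzyme of the mevalonate pathway, read 6.90, 6.60 and 6.84 and then 6.61, 6.93 and 6.66 on high-fat diet, which did not pass (-0.05 ± 0.17, adjusted p = 0.847), and rose by 1.04 ± 0.17, adjusted p = 2.69e-05 on normal diet, a difference of -1.09 ± 0.24, adjusted p = 0.00728. Msmo1, a sterol oxidase, rose by 0.67 and 1.24 in the 2 diets. Insig1, which holds back the regulators of sterol synthesis, fell by 1.32 (adjusted p = 1.12e-06), with its second probe at -0.97.

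The remaining genes with the lowest high-fat change relative to normal diet mostly rose on normal diet and did not pass on high-fat diet. Prune2, a phosphodiesterase relative, Slc1a5, a glutamine transporter, Sorcs2, a sorting receptor, and Adcy10, the soluble adenylyl cyclase, rose on normal diet by 1.51, 1.24, 0.92 and 1.10. Their high-fat differences lay between -0.19 and 0.04. The difference between diets was lost for Slc1a5 when any of 8 arrays was left out, and for Sorcs2 when any of 6 was. Hps5, which helps build lysosome-related organelles, instead fell on high-fat diet on its brightest probe (-0.88), with 0.21 on normal diet. Its second probe fell in both diets, on high-fat diet to below detection, and showed no significant difference between them (adjusted p = 0.835). Tlcd3b, a ceramide synthase, and Dmrtc1a, a gene of the DMRT family, were detected on no high-fat array of week 24, and their changes differed between diets (adjusted p = 0.0240 and 0.000884). For Tlcd3b this was lost when any of 4 arrays was left out.

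Mccc1, a subunit of the carboxylase that breaks down leucine, read 9.11, 9.19 and 9.63 at week 20 and 6.77, 6.79 and 6.84 at week 24 on high-fat diet (-2.51 ± 0.15, adjusted p = 1.02e-12). On normal diet it read 9.30, 9.12 and 9.17 and 6.32, 6.86 and 6.91 (-2.49 ± 0.15, adjusted p = 1.14e-12). The levels of the 2 diets overlapped at both weeks, and the difference between the changes was -0.02 ± 0.21, adjusted p = 0.980.

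Dld, the shared dehydrogenase subunit of the pyruvate, oxoglutarate and branched-chain complexes, fell from 9.76, 10.02 and 10.42 to 7.77, 7.53 and 7.67 (-2.41 ± 0.15, adjusted p = 2.32e-12). Pmpcb, which trims proteins imported into mitochondria, fell by 2.38 (adjusted p = 1.56e-12), and Vapa, which tethers the endoplasmic reticulum to other membranes, fell by 2.37 (adjusted p = 1.16e-13). The mitochondrially encoded ND4L, a subunit of complex I, fell by 2.79 (adjusted p = 2.32e-12). Pcmtd2 and L3hypdh, a methyltransferase-like gene and a hydroxyproline dehydratase, were detected on all week 20 arrays and none at week 24, and were at least 6.03-fold and 4.73-fold lower (adjusted p = 9.57e-12 and 5.13e-11). The deubiquitinase Otud6b fell by 2.60, Fam13a, a regulator of fat cell metabolism, by 2.55, the nuclear import gene Kpna3 to below detection (at least 3.1-fold) and the glucuronyltransferase B3gat2 likewise (at least 3.91-fold). None of these 9 genes, nor Dld, differed significantly in its change between diets.

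Breakdown of branched-chain amino acids held the lowest median of the lists with at least 8 measured genes, -0.33, with 12 of 19 genes lower and 3 higher. These were 63.2% and 15.8% of the list, beside 18.6% lower and 24.5% higher over all genes. On normal diet 10 fell and 2 rose, with a median of -0.36, and no gene differed between diets (limma; 1 at an unadjusted p under 0.05). Acadsb, which oxidises the isoleucine product, fell from 11.12, 11.05 and 10.99 to 8.79, 8.80 and 8.94 (-2.20 ± 0.11, adjusted p = 7.91e-14), and Aldh6a1, of the valine pathway, fell by 1.96 (adjusted p = 2.38e-11). Bckdhb, a subunit of the committed step, rose by 0.52 ± 0.17, adjusted p = 0.0137. With the median shift the list's median turned to 0.17, which is -0.29 relative to all genes, and 5 members fell and 6 rose.

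Fatty acid oxidation and uptake had 15 of 30 genes lower and 1 higher, against 13 and 1 on normal diet, with medians of -0.22 and -0.22. The high-fat shares were 50% lower and 3.33% higher, beside 18.6% and 24.5% of all genes. Hadh, which oxidises short hydroxyacyl chains, read 8.99, 9.10 and 8.96 at week 20 and 7.17, 6.77 and 6.69 at week 24 (-2.14 ± 0.16, adjusted p = 3.80e-11), and its second probe fell by 1.49. Hadhb, a subunit of the trifunctional protein, fell by 1.30, the peroxisomal enzyme Ehhadh by 1.67, the isomerase Eci2 by 1.18 and the fatty acid carrier Fabp4 by 1.72. Acaa1b, a peroxisomal thiolase, was the one that rose (0.41 ± 0.14, adjusted p = 0.0225). Under the median shift the list's median was 0.09, or -0.38 relative to all genes, and 8 members rose and 7 fell.

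Of 65 oxidative phosphorylation subunits 31 fell and 9 rose (median -0.22), close to the 27 and 7 on normal diet. The high-fat shares were 47.7% lower and 13.8% higher, beside 18.6% and 24.5% of all genes. Atp5a1, the alpha subunit of ATP synthase, fell by 2.42 on its brightest probe (adjusted p = 1.29e-12), while its second probe stood at 0.28 ± 0.20, adjusted p = 0.275. The complex I subunits Ndufb9 and Ndufb5 fell by 2.27 and 1.69, and Uqcrq of complex III rose by 1.04 ± 0.17, adjusted p = 1.72e-05. Citric acid cycle genes fell in 10 of 17 cases (58.8%, beside 18.6% of all genes), among them Ogdh (-0.45) and Suclg1 (-0.39), and Mdh2 rose (0.29). The second Suclg1 probe overlapped between the weeks on high-fat diet. Under the median shift the 2 list medians became 0.14 and 0.21, or -0.32 and -0.26 relative to all genes. Of the oxidative phosphorylation subunits 23 then rose and 12 fell, and of the citric acid cycle genes 7 rose and 2 fell, with Ogdh at -0.04 and Suclg1 at -0.15 no longer passing.

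A second probe of the same gene was the check available within an array. Of the 4155 genes that passed, 1500 had a second detected probe, which passed in the same direction for 462 (30.8%) and in the opposite direction for 220 (14.7%). Over all 3581 genes with a second detected probe, passing or not, these shares were 24.7% and 14.5%. A test over all 17243 detected probes called 41.1% of them. For the rises over 2-fold the second probe passed in the same direction in 43 of 59 cases (72.9%), with medians of 1.28 on the brightest and 0.976 on the second probe. Where the rise also differed between diets, it did so in 28 of 31 (90.3%). Of those 31 second probes 15 were below detection in 1 of the 2 groups, and all 16 detected in both passed in the same direction. For the falls over 2-fold the count was 30 of 94 (31.9%), with medians of -1.32 and -0.138, and 10 second probes passed in the opposite direction. With second probes detected in both groups only, it was 26 of 35 rises (medians 1.23 and 1.01) and 18 of 69 falls (medians -1.31 and -0.0833).

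Falls that 2 probes shared included Nampt, the rate-limiting enzyme of NAD salvage, which read 8.36, 8.50 and 8.99 at week 20 and 6.49, 6.55 and 6.43 at week 24 (-2.13 ± 0.17, adjusted p = 2.80e-10). Its second probe read 6.57, 7.16 and 6.96 and then 5.01, 4.88 and 5.14 with no array detected, at least 1.95-fold lower (adjusted p = 9.95e-10). Kif1c, a motor protein, fell on both probes (-2.16 and -0.46). Ddx3x, an RNA helicase, fell by 1.95, and its second probe went below detection, at least 1.51-fold lower. Hsp90aa1, the inducible cytosolic chaperone, fell by 1.70, with a second probe that passed as lower but was detected on 1 week 20 array only and gave no bound. In all 4 genes each week 24 array lay below each week 20 array on both probes.

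In other genes the 2 probes moved apart. Thrap3, a splicing and transcription factor, fell by 1.55 on its brightest probe, from 9.73, 9.77 and 9.85 to 8.27, 8.22 and 8.22. Its second probe rose by 0.96 ± 0.21, adjusted p = 0.000799, from 7.60, 7.85 and 8.16 to 8.85, 8.80 and 8.84. The ubiquitin ligase Cblb fell to below detection (at least 1.75-fold) and the transcription factor Tfcp2 fell by 1.30, while their second probes passed as higher from no detected week 20 array, with no bound above 1. The Wnt receptor Fzd6 fell by 1.27 and rose by 0.48 on its second probe, and the ribosomal protein Rpl31 fell by 1.20 and rose by 0.41. Whether the probes of such a pair read different transcripts was not tested.

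**Figure D4:**
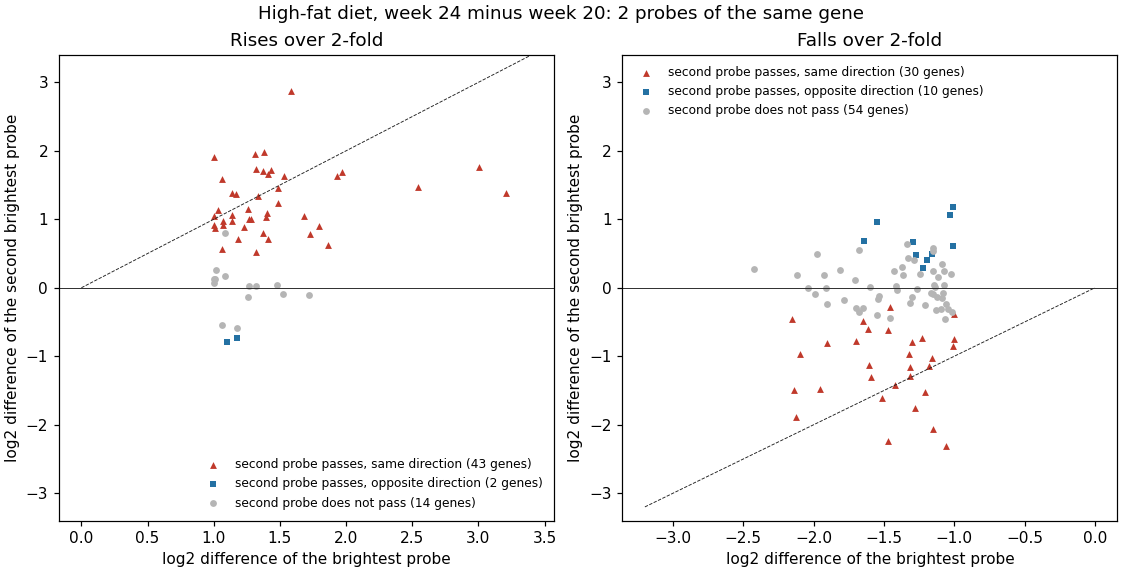
For genes that passed and changed over 2-fold on high-fat diet and had a second detected probe, the log2 difference of the brightest probe (x axis) is set against that of the second brightest (y axis), with equal change on the dashed line. On the left 43 of 59 rises are red triangles, where the second probe passed in the same direction; on the right 30 of 94 falls are, 10 are blue squares of the opposite direction and 54 are grey, with the second probe near zero.

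Brown adipocyte genes moved in both directions. Ucp1, the uncoupling protein, read 15.47, 15.81 and 15.85 at week 20 and 15.88, 15.87 and 15.83 at week 24, and the difference did not pass (0.15 ± 0.11, adjusted p = 0.268). The groups overlapped. These Ucp1 levels lay near the top of the scale, where the highest deposited intensity was 71975.7 before the log2. Whether the probe had room to show a rise was not tested. Cidea, a droplet protein of brown fat, did not pass (0.06, adjusted p = 0.448), nor did Elovl3, an elongase of brown fat (-0.11, adjusted p = 0.596). Cpt1b, the gate of mitochondrial fatty acid entry, stood at -0.18 (adjusted p = 0.140) with a second probe that rose by 0.53. Scaled by array medians, Ucp1 and Cidea passed as higher, at 0.34 and 0.23, which is less than the shift of all genes.

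Of 29 brown fat genes 9 rose and 7 fell on high-fat diet, and on normal diet 7 rose and 7 fell. The high-fat shares lay not far above the 24.5% and 18.6% of all genes, so movement in both directions was not particular to this list. Ppargc1a, the coactivator of mitochondrial biogenesis, rose by 1.01 ± 0.31, adjusted p = 0.0105, and Prdm16, a regulator of brown identity, by 0.78 ± 0.17, adjusted p = 0.000466. Zic1, a transcription factor of interscapular brown fat, fell by 1.32 (adjusted p = 1.83e-06), as on normal diet, and the fatty acid transporter Slc27a2 by 0.58. Plin5, which coats droplets next to mitochondria, rose by 0.99 and 0.91 in the 2 diets, with its second probe at -0.21 on high-fat diet. Pdk4, which restrains glucose oxidation, fell by 0.39 (adjusted p = 0.0360), and Fgf21, a secreted metabolic hormone, rose by 0.46 ± 0.18, adjusted p = 0.0452. With the median shift Pdk4 and Slc27a2 each stood at -0.08 and did not pass. With the lymphocyte covariate Prdm16, Pdk4, Fgf21 and Slc27a2 no longer passed. The second Slc27a2 probe overlapped between the weeks on high-fat diet. Leaving out single arrays ended the calls of Ppargc1a (without high-fat week 20 replicate 1), of Pdk4 (3 of the 6 arrays) and of Fgf21 (any of the 6).

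Among 15 white adipocyte genes 7 rose (46.7%, beside 24.5% of all genes) and 2 fell (13.3%, beside 18.6%). The fallers were the fatty acid carrier Fabp4 (-1.72) and the matrix protein Dpt (-0.52, adjusted p = 0.00537). Lep, which encodes leptin, read 10.96, 11.15 and 11.43 and then 12.07, 12.10 and 12.06 (0.90 ± 0.29, adjusted p = 0.0129), and it rose by 1.00 on normal diet. Npr3, the clearance receptor for natriuretic peptides, rose by 0.97 and 0.91. Sncg, a synuclein of fat and nerve, rose by 0.82 ± 0.16, adjusted p = 0.000192, more than on normal diet (-0.16). Its second probe overlapped between the weeks on high-fat diet, at 9.94, 9.65 and 9.33 and then 9.75, 9.79 and 9.62. Mest, an imprinted gene of fat expansion, was at least 1.11-fold higher (adjusted p = 0.000253). With no detection filter Mest was read on another probe, which passed as lower (-0.93, adjusted p = 0.000144). Adipoq, which encodes adiponectin, rose by 0.25 ± 0.08, adjusted p = 0.0184. The secreted protein gene Epdr1 (-0.08), the lactonase gene Pon1 (0.01), the lipase gene Lpl (0.10) and the desaturase gene Scd1 (-0.11) did not pass.

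Immediate early genes, which respond within minutes to stress and handling, had the highest list median on high-fat diet, 0.75. Of 20 measured, 12 rose (60%, beside 24.5% of all genes) and none fell (limma, with 16 and 0 at an unadjusted p under 0.05). Of the 20, 4 were detected on no week 20 array. Among the 16 detected at both weeks 10 rose and none fell, with a median of 0.75. On normal diet 3 rose and 1 fell, with a median of 0.28, and only 2 of the 20 differed between diets, both higher on high-fat diet. Klf6, a zinc finger factor, rose by 1.10 ± 0.14, adjusted p = 6.77e-07 on its brightest probe, but its second probe passed as lower, from 1 detected array to none (at least 1.06-fold). Dusp1, a phosphatase of stress kinases, rose in both diets (1.40 and 1.07), Socs3, a brake on cytokine signalling, rose by 0.83 ± 0.20, adjusted p = 0.00185, and Atf3 went from no detected array to 3 (at least 1.69-fold, adjusted p = 0.00258). With the lymphocyte covariate 2 of the 20 were higher, at a median of 0.52, and Dusp1 (adjusted p = 0.282), Socs3 (0.287) and Atf3 (0.197) no longer passed. The time from death to freezing is not given in the sources used here.

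Of 16 clock genes 5 rose (31.2%, beside 24.5% of all genes) and 1 fell (6.25%, beside 18.6%) on high-fat diet, with a median of 0.12, and 6 rose and 2 fell on normal diet. Dbp, a clock output factor, read 9.30, 9.52 and 10.25 at week 20 and 12.04, 10.92 and 11.60 at week 24 (1.83 ± 0.45, adjusted p = 0.00173) and rose by 2.81 on normal diet. Arntl, the activator that peaks opposite to Dbp, fell by 1.69 on high-fat diet and went below detection at week 24 on normal diet. With the lymphocyte covariate neither Dbp (adjusted p = 0.128) nor Arntl (0.114) passed. Tef, a relative of Dbp, rose by 1.52 and 1.26, with its second probe detected on no high-fat array of either week. Per2, a repressor of the clock, rose on both probes on high-fat diet (1.17 and 1.38), and no clock gene differed between diets (limma; 2 at an unadjusted p under 0.05). Hour of collection is not given in the sources used here, so its part in these rises was not tested.

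Among other rises shared by both diets, those of Mfsd2a and Pgam2 had 1 array apart. Mfsd2a, a carrier of lysophospholipids, was undetected at week 20 and read 7.16, 9.31 and 6.72 at week 24, with replicate 2 far above the others, and it was at least 2.84-fold higher (adjusted p = 0.00166). Pgam2, a glycolytic enzyme of muscle, read 7.97, 7.98 and 8.61 and then 9.48, 11.07 and 8.31 (1.43 ± 0.49, adjusted p = 0.0190), and the groups overlapped. Without high-fat week 24 replicate 2, Mfsd2a still passed (adjusted p = 0.0242), and with the lymphocyte covariate it did not (0.0861), while Pgam2 without that array stood at 0.71, which did not pass (adjusted p = 0.223). The mean of the skeletal muscle list was 11.08 on that same replicate against 9.38 and 8.4 on the other 2. No skeletal muscle gene of 24 rose, with or without limma's adjustment at 0.05, and Myh4, a fast myosin, fell by 1.55 (adjusted p = 0.00501). Abcb9, a lysosomal peptide transporter, rose in both diets with support from a second probe (1.34 on high-fat diet). Dnmt3l, a methyltransferase cofactor, went from no detected array to 3 in both diets and was at least 2.16-fold higher on high-fat diet, and its second probe at least 1.62-fold.

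Set against the 21 arrays of weeks 0 to 8, the week 24 levels were outside the earlier range for most of the large changes. The genes were chosen for their levels on these same week 24 arrays, so the counts describe them and support nothing further. Of the 137 rises over 2-fold that differed between diets, 128 (93.4%) had all 3 high-fat week 24 arrays above every earlier array. Over all genes tested that share was 16.7%. The median level of those 137 genes was 6.06 over the early weeks, 6.43 at high-fat week 20 and 8.0 at high-fat week 24, and 6.50 at normal week 24. Of the 346 falls over 2-fold, 305 (88.2%) had the high-fat week 24 arrays below every earlier array, and in 286 of the 346 (82.7%) the normal diet arrays of week 24 lay below every earlier array. Over all genes tested these 2 shares were 11.6% and 10.1%.

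Means over the gene lists followed the same lines. On high-fat diet the mean of the lipid-associated macrophage list was 8.65 to 8.71 at week 8, 9.24 to 9.37 at week 20 and 9.85 to 9.95 at week 24. On normal diet it was 9.14 to 9.43 at week 20 and 8.99 to 9.15 at week 24. The arrays of the 2 diets overlapped at week 20 and did not at week 24. The cell cycle list lay at 7.03 to 7.21 on the high-fat arrays of week 20 and at 7.83 to 7.89 on those of week 24. On the normal diet arrays it lay at 7.00 to 7.09 and then at 7.17 to 7.21. Genes of branched-chain amino acid breakdown lay at 11.14 to 11.34 and then at 10.63 to 10.69 on high-fat diet, and at 11.24 to 11.29 and then at 10.59 to 10.68 on normal diet.

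**Figure D5:**
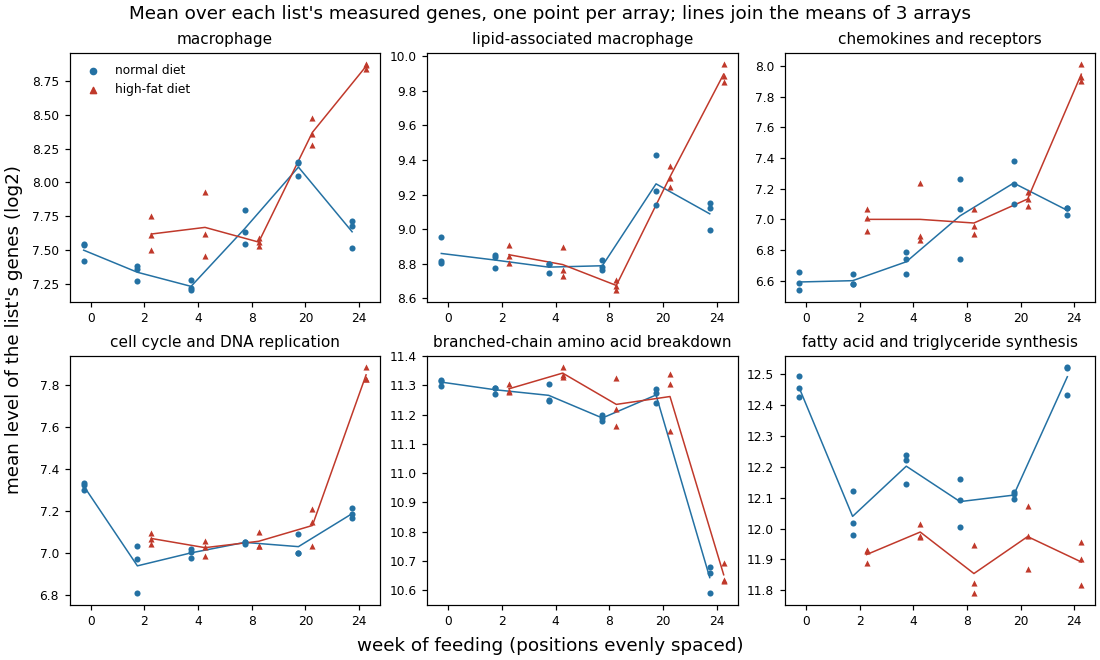
The mean log2 level over the measured genes of 6 lists is plotted for each array by week of feeding, with blue circles for normal and red triangles for high-fat diet and lines through the means of 3 arrays. The macrophage, lipid-associated macrophage, chemokine and cell cycle lists stand higher at week 24 on high-fat diet than on normal diet, the branched-chain amino acid list is lower at week 24 in both diets, and the lipid synthesis list is higher at week 24 on normal diet.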

How the data were processed

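RNA of interscapular brown fat was read on 33 Illumina arrays, 3 in each of 11 groups. The deposited table gives an intensity per probe and array that was not normalized, with a detection p-value beside it, which the authors exported with BeadStudio 3.1.3, as the submitters' processing notes name it. Whether background was subtracted there is not stated. The authors' deposited log2 values share 1 distribution over arrays and were used as an alternative only. No per-sample column was left unused (0), and 3 arrays a group limit the precision.

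Intensities were background-corrected by normexp with control statistics inferred from the detection p, given an offset of 16, quantile normalized over 33 arrays and put on the log2 scale (neqc in limma 3.58.1, R 4.3.3). Probes with detection p below 0.01 on at least 3 arrays were kept. Of 45281 probes, 34885 had 1 gene symbol in the platform annotation, 18 had several and 10378 had none, and symbols were updated through RefSeq tables where these allowed. The brightest kept probe stood for a gene. Linear models with 1 coefficient per group over all 33 arrays (22 residual degrees of freedom) gave 3 contrasts by limma's moderated test, two-sided, with Benjamini-Hochberg adjustment at 0.05: week 24 minus week 20 on high-fat diet, the same on normal diet, and the difference of the 2. A second fit over 17243 probes tested each gene's second brightest probe. The procedure was tested on simulated data. Where a group had no detected array, "at least N-fold" compares the detected group's mean with the lowest signal detected on each array of the other group, or the probe's own signal where higher.

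Genes were named by these rules: the 12 largest non-overlapping changes each way, the 10 largest each way with a supporting second probe, the 8 largest differences between diets each way, up to 5 genes each way of a list by p, 15 genes of fixed interest, up to 8 genes with opposed probes, and the 8 largest changes each way shared by both diets. The members, lists and rules were chosen with earlier results of these data known. Same-numbered replicates were checked for pairing. The correlation of their deviations from the group means was 0.0443, 0.08 and -0.00235 on high-fat and -0.0896, 0.0561 and -0.0845 on normal diet, so the numbers were not taken as pairs. Figures were drawn with matplotlib 3.10.9. Alternatives changed the background correction, normalization, source of values, detection filter, choice of probe, replicate block, array weights, variance prior, arrays in the fit, 2 covariates for cell make-up, and left out each array in turn.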

Additional observations from a re-analysis of the deposited data

Results flagged for a closer look

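The change from week 20 to week 24 differed between the diets for 386 genes in the test of that difference, 3 arrays in each of the 4 groups. Among genes of lipid-associated and other macrophages the high-fat change exceeded the normal diet change, in log2 units, for Gpnmb (3.19), Trem2 (3.06), Lgals3 (2.76), Capg (2.08), Tyrobp (1.65), Laptm5 (1.55), Fcgr3 (1.36), Cd63 (1.11), C1qa (0.76) and Cfp (1.19). Chemokine genes with such a difference were Ccl7 (3.03), Ccl4 (2.56), Ccl9 (2.53), Ccl6 (1.75), Cxcl1 (1.47) and Ccl3 (1.32). Genes of cell division were Prc1 (2.02), Top2a (1.77), Tk1 (1.53), Cdca8 (1.37) and Plk1 (1.08). Matrix and secreted factor genes were Col1a1 (1.31), Col5a1 (0.98), Fstl1 (0.69), Igf1 (1.01) and Lcn2 (1.60). Others higher on high-fat diet were Hk3 (2.41), Clec4d (2.34), Slc37a2 (2.32), Cd44 (2.02), Rab7b (1.89), Kcnab2 (1.81), Lat2 (1.81), Rgs1 (1.57), Emp3 (1.48), Coro1a (1.40), Aldh3b1 (1.22), Sncg (0.97) and Klf6 (0.85). The high-fat change was lower for the metabolic genes Me1 (-0.82), Slc25a1 (-0.87), Slc2a4 (-1.06), Mvd (-1.09) and Slc1a5 (-1.20). It was lower as well for Adcy10 (-1.07), Hps5 (-1.09), Sorcs2 (-1.10), Prune2 (-1.47), Tlcd3b (-1.47) and Dmrtc1a (-1.80). Of these genes 16 were detected on no array of at least 1 of the 4 groups. Their values are no exact folds, and their tests of the difference are descriptive only: Ccl7, Ccl4, Hk3, Clec4d, Slc37a2, Kcnab2, Top2a, Lcn2, Rgs1, Tk1, Cxcl1, Cdca8, Ccl3, Plk1, Tlcd3b and Dmrtc1a. The second probe of Hps5 fell in both diets with no significant difference between them. For Klf6 the brightest and the second probe had opposite signs on high-fat diet.

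Probes without a gene symbol entered no comparison above. Of 2467 such probes that passed the detection filter, 1041 (42.2%) changed from high-fat week 20 to week 24, 453 of them higher and 588 lower, and 85 differed between diets.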

How the results depend on the processing

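Of the 128 alternative values of the main counts, 110 stayed within 1.5 times the main count. With the median shift, 6392 genes passed on high-fat diet, 662 differed between diets and a second probe backed 1340 calls. The same setting gave 1073 rises over 2-fold, 340 of them differing between diets, and 209 falls over 2-fold, 207 of them shared with normal diet. Without background correction these 4 counts were 53, 42, 120 and 120, and with the authors' deposited values 63, 49, 134 and 134. Array weights gave 667 genes differing between diets. Leaving out 1 array gave 3582 to 3878 genes on high-fat diet, 3001 to 3256 on normal diet and 256 to 657 for the difference. The fit with the replicate block gave 4100, 3571 and 378 genes, against 4155, 3640 and 386. Those 4 counts over 2-fold were added after seeing the data.

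Of 218 results on single genes, 137 kept direction and call under every setting run. With the median shift, values turned sign for Ctsz (0.0523), Lox (0.0910), Ccnd3 (0.30), Irgm1 (0.12), Slc25a1 (0.0136), Mvd (0.29), Pgk1 (0.0332), Sorcs2 (0.18), Elovl3 (0.33), Cpt1b (0.26), Epdr1 (0.36), Pecam1 (0.10) and Cdh5 (0.0323). With the mean of a gene's probes they did for Irgm1 (0.0519), Pgk1 (0.22), Dmrtc1a (-0.0429) and Cpt1b (0.17). With no detection filter the sign turned for Mest (-0.93), read on another probe that passed as lower. Array weights put Pon1 at -0.00968. With the lymphocyte covariate the values were -0.0802 for H2-DMb2, -0.14 for Dmrtc1a, -0.15 for Prune2, -0.36 for Slc1a5, -0.0572 for Fgf21, 0.00378 for Epdr1 and -0.12 for Pon1. Leaving out 1 array gave -0.145 to 0.0155 for Mvd, -0.0328 to 0.143 for Prune2, -0.109 to 0.212 for Slc1a5, -0.0386 to 0.155 for Adcy10, -0.267 to 0.0414 for Epdr1 and -0.113 to 0.159 for Pon1, none of which passed in the main analysis. Calls on high-fat diet that passed and were lost without 1 array, with the highest adjusted p, were those of Acaa1b (0.117), Bckdhb (0.181), Ccnd3 (0.218), Fgf21 (0.17), Lox (0.173), Oasl2 (0.11), Pdk4 (0.169), Pgam2 (0.223) and, at most at 0.0853, Adipoq, Cdh5, H2-DMb2, Lep, Msmo1 and Ppargc1a. Differences between diets lost in this way were those of C1qa (0.0517), Fstl1 (0.0908), Me1 (0.0997), Slc1a5 (0.119), Sorcs2 (0.0956) and Tlcd3b (0.111). The median shift ended 17 of the 153 named high-fat calls and 2 of the 50 named differences between diets (Me1 and Slc1a5), and the lymphocyte covariate 38 and 10. Apart from the settings' own construction, the cause was not tested. Signal over background limits dim genes, whose differences carry the offset of 16.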

Other observations

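Of 24 measured endothelial genes 3 rose (12.5%, beside 24.5% of all genes) and 5 fell (20.8%, beside 18.6%) on high-fat diet, with a median difference of -0.11, and 2 rose and 7 fell on normal diet, with a median of -0.15. The mean of the list overlapped on high-fat diet, at 10.18 to 10.29 at week 20 and 10.19 to 10.25 at week 24. With the median shift 15 rose, and the list median was 0.36, or -0.10 relative to all genes. Pecam1 and Cdh5, which hold endothelial cells together, turned to 0.10 and 0.03, or -0.36 and -0.43 relative to all genes. The brightest Pecam1 probe fell on high-fat diet in the main analysis. Its second probe read 7.95, 8.05 and 7.78 at week 20 and 8.35, 8.46 and 8.32 at week 24. The summed intensity of the endothelial markers ran from 2417 to 2817 at high-fat week 20 and from 1828 to 2125 at week 24, and on normal diet from 2045 to 2114 and then from 1513 to 1810.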
